A study of Mus musculus with 6 samples.

Results

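The genes of cholesterol and fatty acid synthesis were followed in mouse embryonic stem cells (mESCs) that had lost Dcr, the RNase III enzyme from which mature miRNAs arise. They are 32 listed genes: 7 of the mevalonate pathway, 3 that lead from farnesyl diphosphate to lanosterol, 8 of the steps after lanosterol, 5 that control the SREBP factors, 4 of sterol transport and 5 of fatty acid synthesis and desaturation. Members were chosen by gene symbol, as genes of SREBP-regulated lipid synthesis and of sterol transport, and 31 of the 32 had at least 1 probe set that carried that symbol alone, out of 18193 genes with a value on the array. Acat2, the cytosolic thiolase of the first step, had none. The 31 genes were read by 72 probe sets, and each gene was given the average log2 value over its own probe sets.

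Both groups came from 1 line of mESCs whose Dcr alleles are floxed on both chromosomes, grown on gelatin with fetal calf serum and LIF. Dcr KO cells received GFP and Cre recombinase, Dcr WT cells received GFP alone and kept Dcr intact, and RNA was taken 5 days after transfection. Each group had 3 arrays, described in the methods as biological triplicates, and the Dcr KO cells were a polyclonal population in which some cells could still hold the gene. No group received Cre without losing Dcr, so an effect of Cre cannot be told apart from that of the deletion. Dicer1, the array's name for Dcr, had log2 values of 6.33, 6.59 and 5.92 on the Dcr KO arrays, against 7.78, 7.89 and 7.16 on the Dcr WT arrays (log2 difference -1.33, SE 0.23, adjusted p = 0.0134 from limma). Pearson correlations across all probe sets were 0.9935 or more between Dcr KO arrays, 0.9922 or more between Dcr WT arrays and 0.9837 to 0.9936 across groups. All 8 pluripotency markers passed the minimum level and none was called different by limma (before adjustment 3 were higher and 1 was lower at a p under 0.05), while all 9 markers of primitive and visceral endoderm lay under it. Of 5 neural markers, Pax6, Sox1 and Neurog2 lay under the minimum, with log2 differences of 0.58, 0.89 and -0.03. Tubb3 was higher (log2 difference 0.73, adjusted p = 0.0100 from limma) and Nes did not pass (-0.07, adjusted p = 0.759 from limma). The summed linear level of the 5 was 518 to 597 in Dcr KO, against 320 to 372 in Dcr WT. That sum mostly followed Tubb3, the brightest, with a mean log2 level of 9.01 in Dcr KO, against 4.01 for Nes. The summed levels were also apart for the pluripotency markers (49870 to 51190 in Dcr KO, against 45120 to 49470 in Dcr WT) and, at background level, for the endoderm markers (35.8 to 35.9 in Dcr KO, against 33.3 to 34.3 in Dcr WT), and they overlapped for 6 fibroblast and 5 trophectoderm markers. The trophectoderm sum mostly followed Tfap2c, with a mean of 9.59 in Dcr KO. Gata3, Tfap2c and Eomes had differences of 0.84, 0.19 and -0.265, and none passed (adjusted p = 0.0621 to 0.484 from limma). Cdx2 and Elf5 lay under the minimum (0.48 and -0.04). So did the fibroblast markers Col3a1, Pdgfra, Col1a2 and Thy1 (1.22, 0.11, -0.71 and -0.62). The part of these differences in the results was not tested.

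Cholesterol is built from acetyl-CoA through mevalonate, isoprenoid diphosphates, squalene and lanosterol. Most enzymes of the route are transcribed under SREBP-2, and many of fatty acid synthesis under SREBP-1. SCAP escorts the SREBP precursors from the endoplasmic reticulum to the Golgi, where proteases free the active factor, and INSIG proteins hold the complex back when sterols are plentiful. In rapidly dividing cells the route supplies membrane sterol, as well as isoprenoids for the modification of proteins.

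Most of these genes had lower values in Dcr KO, by modest amounts, and few differences passed the test. Of the 31 genes, 30 had a mean log2 level of at least 4 and were tested. In Dcr KO, 5 of the 30 were called lower by limma (adjusted p under 0.05), namely Mvd, Pmvk, Scd1, Mvk and Sqle. The share is 16.7%, where 6.42% of the 8782 genes tested were called lower. Abca1 alone was higher, 1 of 30, where 6.91% of all genes tested were called higher. The other 24 did not pass. The difference was below 0 in 27 of the 30 members (90.0%), against 53.0% of all genes tested, and the median log2 difference was -0.34, against -0.02 over all genes tested. In 14 members (46.7%) all 3 Dcr KO values lay below all 3 Dcr WT values, which was the case for 21.2% of all genes tested. Members of 1 pathway share regulators and are not independent, and no test of the list as a whole was run. The list was also chosen with earlier results of these data known. In RNA from whole cultures, fewer cells with a transcript and less of it per cell cannot be told apart.

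**Figure D1:**
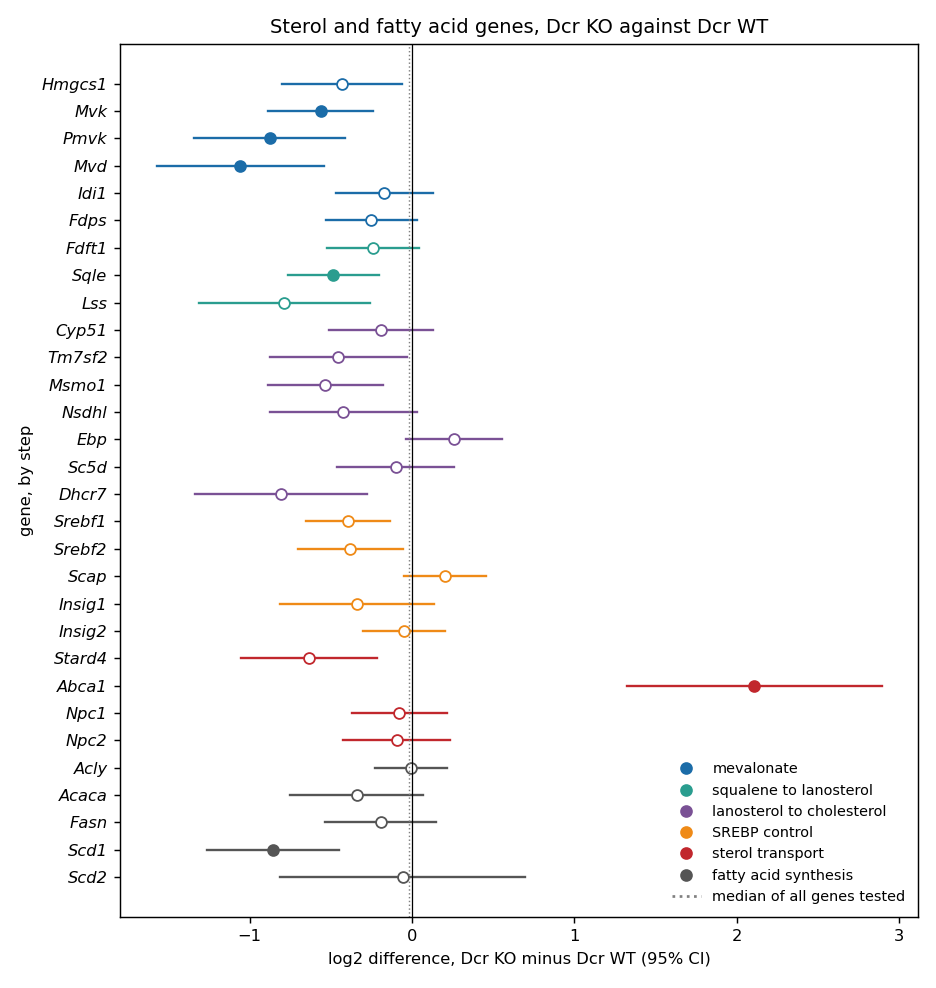
Log2 differences (Dcr KO minus Dcr WT) for the 30 members tested, in the order of the pathway from top to bottom (points; bars, 95% confidence interval; filled points, adjusted p under 0.05 from limma; dotted line, median of all genes tested). Mvd lies farthest to the left at -1.06, Abca1 farthest to the right at 2.11, and 27 of the 30 points lie below 0.

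The mevalonate enzymes included 3 of the 5 members called lower, and these act at consecutive steps. All 6 mevalonate genes tested had a difference below 0. Mvd, which decarboxylates mevalonate diphosphate, had log2 values of 7.50, 7.37 and 6.60 on the Dcr KO arrays, against 8.13, 8.18 and 8.32 on the Dcr WT arrays. The groups did not overlap, and Dcr KO replicate 3 was the lowest. The mean was 7.15 ± 0.49 in Dcr KO and 8.21 ± 0.10 in Dcr WT (SD, n = 3 each), so that 48.1% of the Dcr WT signal was left (log2 difference -1.06, SE 0.22, adjusted p = 0.0239 from limma). Its probe sets gave much the same difference, -1.07 and -1.04, and the second alone passed (adjusted p = 0.0503 and adjusted p = 0.044 from limma over probe sets).

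Pmvk, the kinase that acts just before Mvd, had 8.35, 8.23 and 7.59 in Dcr KO, against 8.76, 8.98 and 9.06 in Dcr WT. Again Dcr KO replicate 3 was lowest and the groups were separate (log2 difference -0.88, SE 0.20, 54.5% of Dcr WT, adjusted p = 0.0306 from limma). Pmvk had 1 probe set, which did not pass in the fit of probe sets (adjusted p = 0.0552 from limma over probe sets). Mvk, mevalonate kinase, had 4.20, 4.05 and 4.07 in Dcr KO, against 4.71, 4.40 and 4.90 in Dcr WT (log2 difference -0.56, SE 0.14, adjusted p = 0.0375 from limma). Its level was close to the minimum of 4 in both groups, so the size of its fall is less certain than that of Mvd or Pmvk. The brighter Mvk probe set did not pass in the fit of probe sets (adjusted p = 0.108 from limma over probe sets). Mvk was called lower in only 1 of the 6 fits that left out 1 array. The steps on either side did not pass the test. Hmgcs1, which makes HMG-CoA, had 11.03, 10.88 and 10.43 in Dcr KO, against 11.28, 11.24 and 11.12 in Dcr WT, with no overlap (log2 difference -0.43, 95% CI -0.80 to -0.06, adjusted p = 0.110 from limma). The dimmest of its 5 probe sets gave -0.98 and another gave -0.50, both with separate groups. The others, among them the brightest, gave -0.19, -0.18 and -0.29 with overlapping groups (adjusted p = 0.351 to 0.493 from limma over probe sets). The isomerase Idi1 and farnesyl diphosphate synthase Fdps had log2 differences of -0.17 (adjusted p = 0.396) and -0.25 (adjusted p = 0.200 from limma). The dim Fdps probe set averaged 1.66 in Dcr KO and 1.58 in Dcr WT, and on the bright one the difference was -0.57 (adjusted p = 0.142 from limma over probe sets).

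Promoter windows of these enzymes are printed to show the DNA around sequence motifs known from SREBP-regulated genes, where SREBP acts together with factors such as NF-Y and Sp1. Windows of 300 bases, from 250 before to 50 after the RefSeq start (GRCm38.p6), were held for 25 of the 32 members and searched on both strands for TCACNCCAC (a sterol regulatory element), CCAAT (the NF-Y box), CACGTG (an E-box) and GGGCGG (an Sp1 box). No motif contains another. Capitals mark TCACNCCAC in Hmgcs1 and CCAAT, or ATTGG where it lies on the opposite strand, in the others. The lines run 5′ to 3′ on the strand of the gene, from chr13:119690184-119690252 (plus strand) for Hmgcs1, chr5:114444066-114444289 (plus) for Mvk, chr3:89454375-89454439 (plus) for Pmvk and chr8:122443415-122443512 (minus) for Mvd.
Hmgcs1: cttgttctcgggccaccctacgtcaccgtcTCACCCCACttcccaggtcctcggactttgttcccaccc
Mvk: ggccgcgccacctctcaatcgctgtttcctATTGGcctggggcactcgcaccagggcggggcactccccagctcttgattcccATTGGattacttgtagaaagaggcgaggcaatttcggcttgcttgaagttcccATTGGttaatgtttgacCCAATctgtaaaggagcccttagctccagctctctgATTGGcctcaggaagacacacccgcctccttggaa
Pmvk: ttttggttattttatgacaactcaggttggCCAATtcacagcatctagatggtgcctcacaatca
Mvd: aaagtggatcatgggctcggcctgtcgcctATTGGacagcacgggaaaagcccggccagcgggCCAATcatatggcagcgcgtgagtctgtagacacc
CCAAT was found in 21 of the 25 member windows (84.0%), against 43.5% of the 7215 tested genes with a window and 37.4% of all 32851 windows. Abca1, Acaca, Acat2 and Scap were without it. Mvk held 5 matches and Mvd 2. TCACNCCAC was found in Hmgcs1 alone among the members (4.0%, against 1.37% of tested genes), CACGTG in 6 members (24.0%, against 12.8%) and GGGCGG in 22 (88.0%, against 72.9%). These are matches of letters, described with no test, and a match is not evidence of a bound factor.

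From farnesyl diphosphate to lanosterol all 3 genes had Dcr KO values below all Dcr WT values, as did 21.2% of all genes tested. Of the 3, 1 passed the test (33.3%, where 6.42% of all genes tested were called lower). Sqle, squalene epoxidase, the first enzyme of the route to use oxygen, had 10.31, 10.23 and 9.96 in Dcr KO, against 10.74, 10.57 and 10.65 in Dcr WT. The fall was small beside that of Mvd but the arrays of each group lay close together (log2 difference -0.49, SE 0.12, 71.4% of Dcr WT, adjusted p = 0.0380 from limma). Sqle had 1 probe set, which did not pass in the fit of probe sets (adjusted p = 0.0677 from limma over probe sets). Lss, which closes the sterol ring to give lanosterol, had 6.24, 6.20 and 5.36 in Dcr KO, against 6.65, 6.84 and 6.67 in Dcr WT. The larger difference of -0.79 went with a wider spread, set by Dcr KO replicate 3, and did not pass (adjusted p = 0.0579 from limma). For Fdft1, squalene synthase, the log2 difference was -0.24 (adjusted p = 0.221 from limma). That average included dim probe sets, with means of 1.63 and 1.66 in Dcr KO. The bright ones gave -0.42 and -0.40 with separate groups (adjusted p = 0.145 and adjusted p = 0.127 from limma over probe sets).

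After lanosterol 0 of 7 tested genes passed in limma after adjustment and 3 had an unadjusted p under 0.05, and 6 of the 7 had a difference below 0 (median -0.42). Dhcr7, which makes cholesterol from 7-dehydrocholesterol, had 8.90, 8.79 and 7.96 in Dcr KO, against 9.33, 9.38 and 9.36 in Dcr WT. The Dcr WT arrays lay within 0.05 of each other while Dcr KO replicate 3 stood well below the other two (log2 difference -0.81, SE 0.23, adjusted p = 0.0559 from limma). Msmo1, the C4 methyl oxidase, had a difference of -0.53 (adjusted p = 0.0564 from limma) with no overlap between groups. Its neighbours Tm7sf2, a C14 reductase (-0.45), Nsdhl, a decarboxylating C4 dehydrogenase (-0.42), Cyp51, the lanosterol demethylase (-0.19), and Sc5d, a desaturase (-0.10), were further from the threshold (adjusted p = 0.136 to 0.689 from limma). The averages of Cyp51 and Sc5d each included a dim probe set. The bright ones gave -0.33 and -0.30 for Cyp51 and -0.20 and -0.19 for Sc5d (adjusted p = 0.210 to 0.642 from limma over probe sets). Ebp, a sterol isomerase of these steps, ran the other way, with 9.04, 9.08 and 9.15 in Dcr KO, against 8.80, 8.63 and 9.06 in Dcr WT (log2 difference 0.26, 95% CI -0.03 to 0.55, adjusted p = 0.201 from limma). Hsd17b7, the ketosteroid reductase, averaged 3.70 in Dcr KO and 3.73 in Dcr WT over 4 probe sets and was not tested. One of these was bright, at 6.75 ± 0.27 in Dcr KO and 7.14 ± 0.25 in Dcr WT (SD, n = 3 each), and did not pass (adjusted p = 0.232 from limma over probe sets).

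**Figure D2:**
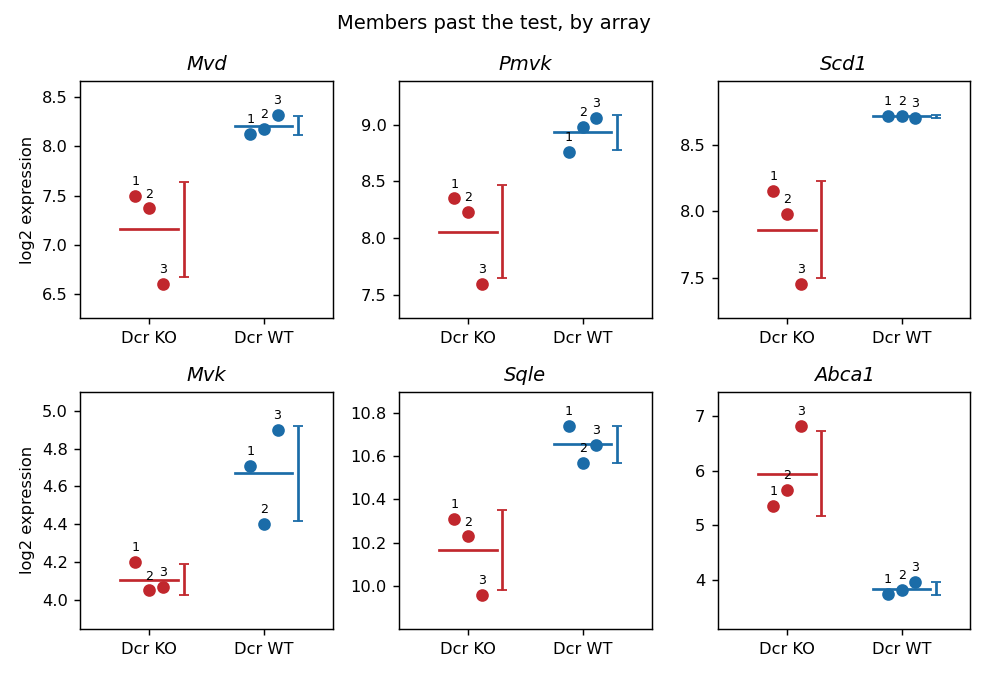
Log2 expression of the 6 members past the test on each array (points, numbered by replicate; horizontal lines, group means; bars, SD, n = 3), with Dcr KO on the left of each panel and Dcr WT on the right; the vertical scales differ and do not start at 0. No panel shows overlap between groups, and Dcr KO replicate 3 is the lowest array for Mvd, Pmvk, Scd1 and Sqle and the highest for Abca1.

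None of the 5 genes that control SREBP activity was called different by limma, and 2 of them, Srebf1 and Srebf2, had an unadjusted p under 0.05. Srebf1, which encodes SREBP-1, had 8.15, 8.26 and 8.21 in Dcr KO, against 8.47, 8.78 and 8.56 in Dcr WT. These were separate groups with a tight spread in Dcr KO, and the difference fell just short of the threshold (log2 difference -0.40, SE 0.11, adjusted p = 0.0544 from limma). Srebf2, which encodes SREBP-2, had 7.64, 7.39 and 7.54 in Dcr KO, against 8.13, 7.91 and 7.67 in Dcr WT, also without overlap (log2 difference -0.38, adjusted p = 0.109 from limma). Insig1, itself a well-known SREBP target, had 9.09, 8.98 and 8.27 in Dcr KO, against 9.06, 9.16 and 9.13 in Dcr WT. There Dcr KO replicate 1 lay within the Dcr WT range and replicate 3 alone was far below it (log2 difference -0.34, adjusted p = 0.293 from limma). Insig2 had 7.37, 7.47 and 7.45 in Dcr KO, against 7.44, 7.36 and 7.64 in Dcr WT, with a 95% CI of the difference from -0.30 to 0.20. Scap had a difference of 0.21 with overlapping groups (adjusted p = 0.236 from limma).

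Among the genes of sterol transport, Abca1 rose and was the member with the largest difference in either direction. ABCA1 moves cholesterol and phospholipid out of the cell onto apolipoprotein A-I. Abca1 had log2 values of 5.35, 5.65 and 6.83 in Dcr KO, against 3.73, 3.81 and 3.96 in Dcr WT. The highest Dcr WT array lay well below the lowest Dcr KO array, and Dcr KO replicate 3 was the highest. The mean was 5.94 ± 0.79 in Dcr KO and 3.83 ± 0.12 in Dcr WT (SD, n = 3 each), a log2 difference of 2.11 (SE 0.34, 4.32-fold, adjusted p = 0.0110 from limma). The Dcr WT mean lay under the minimum of 4, so the fold change rests on a level near background. On its brightest probe set the values were 8.49, 8.61 and 9.35 in Dcr KO, against 5.38, 6.42 and 5.95 in Dcr WT, a 7.46-fold difference (adjusted p = 0.00804 from limma over probe sets). The other Abca1 probe sets were dim, with Dcr WT means of 3.04 and 2.54, and also had every Dcr KO array above every Dcr WT array. Abca1 is on the study's list of predicted targets of the miR-290 to miR-295 cluster, a list chosen in part for rises on these same arrays, so its direction is not independent evidence for that list.

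**Figure D3:**
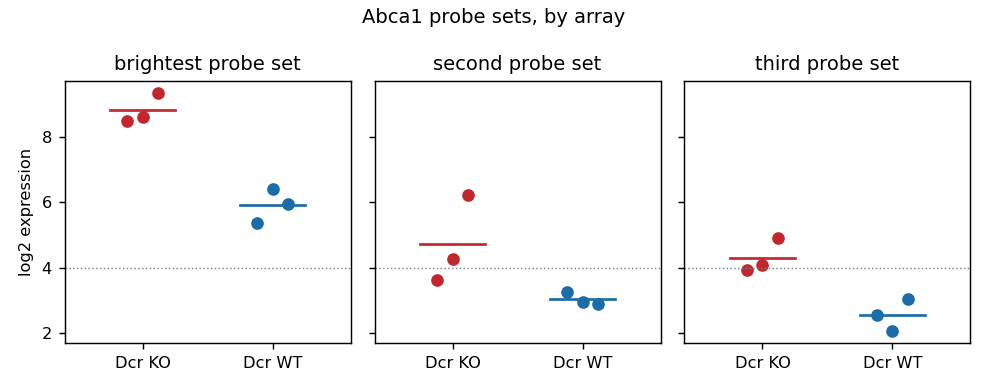
Log2 expression of the 3 Abca1 probe sets on each array (points, 1 per array in the order of replicates; lines, group means; dotted line, the minimum of 4), with Dcr KO on the left and Dcr WT on the right of each panel. Every Dcr KO point lies above every Dcr WT point in each panel, and in the left panel alone the Dcr WT arrays lie above the minimum.

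Sequences of miR-33, which is known for its link to these genes, and of miRNAs from the cluster that the study examined are printed with the seed, bases 2 to 8, in capitals. In the mouse, miR-33 is encoded within Srebf2 and is known to repress Abca1, and in human cells also NPC1. The others come from the miR-290 to miR-295 cluster, the main source of miRNAs in mESCs, which also gives miR-292a-3p. Sequences and positions are from RefSeq (GRCm38.p6): miR-33-5p lies at chr15:82198127-82198147 (plus strand), inside the annotated span of Srebf2, and the cluster members lie at chr7:3218674-3218697 (miR-290a-3p) to chr7:3220815-3220837 (miR-295-3p), on the plus strand.
mmu-miR-33-5p: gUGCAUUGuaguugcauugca
mmu-miR-290a-3p: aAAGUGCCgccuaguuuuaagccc
mmu-miR-291a-3p: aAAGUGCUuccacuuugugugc
mmu-miR-291b-3p: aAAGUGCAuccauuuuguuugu
mmu-miR-294-3p: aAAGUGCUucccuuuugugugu
mmu-miR-295-3p: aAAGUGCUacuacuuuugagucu
The seed is the same, AAGUGCU, in miR-291a-3p, miR-294-3p and miR-295-3p, and differs from it in the last base in miR-290a-3p and miR-291b-3p. The seed of miR-33-5p, UGCAUUG, is another one. The arrays do not measure mature miRNAs, and whether any of these acts on Abca1 in these cells was not tested.

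Npc1, which exports cholesterol from late endosomes, did not follow Abca1. It had 8.12, 8.10 and 8.13 in Dcr KO, against 8.42, 7.98 and 8.19 in Dcr WT, and the Dcr KO values lay within the Dcr WT range (log2 difference -0.08, 95% CI -0.37 to 0.21, adjusted p = 0.693 from limma). Npc2, its soluble partner in the lysosome, had overlapping groups and a difference with a 95% CI from -0.42 to 0.23. Stard4, a cytosolic sterol carrier, had 8.67, 8.58 and 8.06 in Dcr KO, against 9.25, 8.85 and 9.12 in Dcr WT, with no overlap (log2 difference -0.63, SE 0.18, adjusted p = 0.0568 from limma).

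In fatty acid synthesis Scd1 was lower in Dcr KO and the other 4 members did not pass. Scd1 and Scd2 encode stearoyl-CoA desaturases, which introduce the double bond of oleate and palmitoleate. Scd1 had 8.15, 7.98 and 7.45 in Dcr KO, against 8.72, 8.72 and 8.70 in Dcr WT. The Dcr WT arrays were almost identical and all Dcr KO arrays lay clearly below them (7.86 ± 0.37 in Dcr KO and 8.71 ± 0.01 in Dcr WT, SD, n = 3 each, log2 difference -0.86, SE 0.17, 55.2% of Dcr WT, adjusted p = 0.0217 from limma). The Scd1 probe sets gave -0.83 and -0.88, and the first alone passed (adjusted p = 0.0252 and adjusted p = 0.0668 from limma over probe sets). Scd2 had 9.99, 10.13 and 10.28 in Dcr KO, against 10.90, 9.42 and 10.25 in Dcr WT, so that its Dcr KO values lay inside a wide Dcr WT range. Its 95% CI, from -0.81 to 0.70, reached down almost to the log2 difference of Scd1, and the contrast between the genes was not tested. On its dimmest probe set Dcr WT replicates 1 and 2 stood at 8.53 and 5.51, while on the brightest one the values were 13.04, 12.89 and 12.75 in Dcr KO, against 13.24, 13.19 and 13.00 in Dcr WT (log2 difference -0.25, adjusted p = 0.251 from limma over probe sets). Acly, which makes cytosolic acetyl-CoA from citrate, had 6.59, 6.55 and 6.47 in Dcr KO, against 6.59, 6.47 and 6.57 in Dcr WT (95% CI of the difference -0.23 to 0.21). Its 6 probe sets had Dcr WT means from 1.45 to 11.9, so the average is the level of none of them. On the bright ones the differences were 0.20, 0.05 and 0.01 (adjusted p = 0.666 to 0.954 from limma over probe sets). Acaca, acetyl-CoA carboxylase, and Fasn, fatty acid synthase, had differences of -0.34 and -0.19 with overlapping groups (adjusted p = 0.223 and adjusted p = 0.395 from limma). For Acaca 1 of the probe sets was dim, and on the bright one the groups were separate (log2 difference -0.67, adjusted p = 0.0586 from limma over probe sets).

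By array, the median over the members was below 0 on each Dcr KO array and lowest on replicate 3. Each member's deviation from its Dcr WT mean was taken on each array. The median over the 30 members was -0.23, -0.20 and -0.41 on Dcr KO replicates 1, 2 and 3, against 0.02, -0.08 and 0.04 on the Dcr WT replicates. Mevalonate genes had medians of -0.34, -0.48 and -0.69 on the Dcr KO arrays, and the genes from farnesyl diphosphate to lanosterol -0.34, -0.42 and -0.69. For the steps after lanosterol the medians were -0.25, -0.29 and -0.57, for SREBP control -0.11, -0.14 and -0.37 and for fatty acid synthesis -0.20, -0.13 and -0.32. Sterol transport differed, with -0.17, -0.14 and 0.04, so that its median was not below 0 on replicate 3. Among the 27 members with a difference below 0, replicate 3 was the lowest Dcr KO array in 19 (70.4%), and among all genes tested with a difference below 0 it was so in 2574 of 4656 (55.3%). Without Dcr KO replicate 3 the median log2 difference of the members was -0.24.

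**Figure D4:**
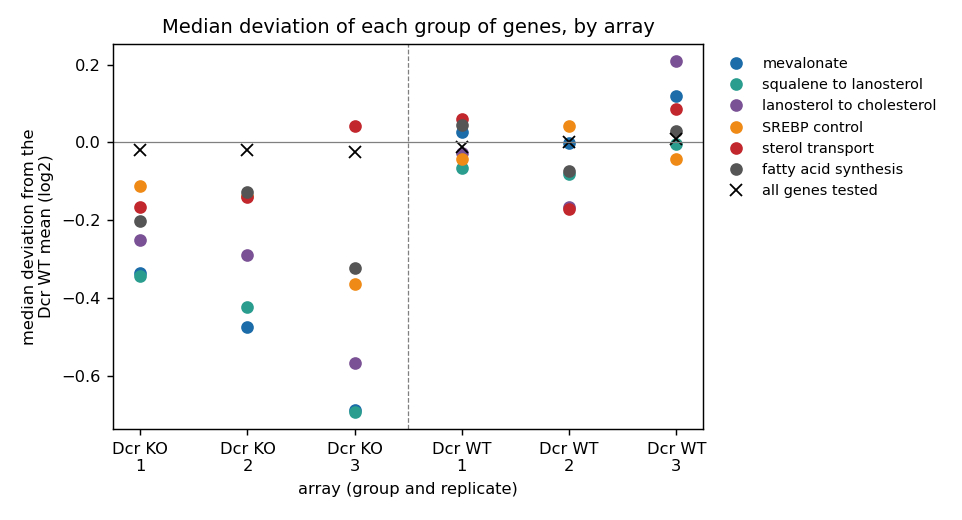
Median deviation from the Dcr WT mean (log2) of each group of member genes on each array, Dcr KO arrays on the left of the dashed line and Dcr WT arrays on the right (colours, groups of genes; crosses, all genes tested). The mevalonate genes reach -0.69 on Dcr KO replicate 3, while the crosses lie close to 0 on every array.

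Most calls of lower members were lost when some single arrays were left out, while Abca1 passed in each of the 6 fits that left out 1 array (highest adjusted p = 0.0453 from limma). Without Dcr KO replicate 2, Dcr WT replicate 1 or Dcr WT replicate 3, none of the members was called lower by limma, with 11, 11 and 12 of them lower at an unadjusted p under 0.05, against 13 with all arrays. Over the whole array 137, 363 and 155 genes (1.56%, 4.13% and 1.76%) were then called lower. The share of all genes at an unadjusted p under 0.05 was not counted, so those member counts have no background beside them. The differences of Mvd and Scd1 stayed about as large in these fits: without Dcr KO replicate 2 they were -1.17 for Mvd (adjusted p = 0.0504) and -0.92 for Scd1 (adjusted p = 0.0536 from limma). Without Dcr KO replicate 1 the 5 called lower were Dhcr7, Mvd, Pmvk, Scd1 and Sqle, and without Dcr KO replicate 3 they were Dhcr7, Lss, Mvd, Pmvk and Scd1. Without Dcr WT replicate 2 they were Msmo1 and Mvk. Over all genes tested 4.3%, 3.4% and 3.2% were called lower without Dcr KO replicate 1, Dcr KO replicate 3 and Dcr WT replicate 2. Another 5 members lay just above the threshold in the full fit, with adjusted p = 0.0544 to 0.0579 from limma (Srebf1, Dhcr7, Msmo1, Stard4 and Lss).

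Other genes of lipid metabolism were taken from 5 further lists, also chosen with earlier results of these data known. In fatty acid synthesis, elongation and desaturation, 4 of 14 tested genes were lower in Dcr KO (28.6%, against 6.42% of all genes tested), 1 was higher (7.14%, against 6.91%) and 9 did not pass, with a median log2 difference of -0.22. The share of higher genes was thus close to that of the whole array. The lower ones were Mid1ip1, an activator of acetyl-CoA carboxylase (log2 difference -0.81, adjusted p = 0.0169 from limma), Mcat of mitochondrial fatty acid synthesis (0.501-fold), Fads2, a desaturase of polyunsaturated fatty acids (-0.47), and Elovl6, an elongase of saturated fatty acids (-0.38). Mid1ip1 had 9.25, 9.15 and 8.71 in Dcr KO, against 9.95, 9.79 and 9.81 in Dcr WT, and Dcr KO replicate 3 was again the lowest. It passed in 5 of the 6 fits without 1 array (adjusted p = 0.0567 without Dcr WT replicate 3), Mcat in 2, and Fads2 and Elovl6 in none. Acsl5, an acyl-CoA synthetase, was higher (0.59, adjusted p = 0.0282 from limma) and passed in 2 of the 6. In the isoprenoid branch 0 of 12 genes passed in limma in either direction, and before adjustment 1 was higher and 3 were lower at a p under 0.05 (median -0.13).

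Among 11 tested genes of sterol sensing, uptake, storage and efflux, Mylip alone passed. That is 9.09% of the list, near the 6.91% of all genes tested that were called higher. Mylip encodes IDOL, the ubiquitin ligase that sends lipoprotein receptors to degradation. Mylip had 5.43, 5.57 and 5.81 in Dcr KO, against 4.75, 4.80 and 4.63 in Dcr WT, with the groups well apart (log2 difference 0.88, SE 0.12, adjusted p = 0.00709 from limma).

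Of 20 tested genes of fatty acid oxidation, 3 were called higher (15.0%, against 6.91% of all genes tested) and 1 was called lower (5.0%, against 6.42%), with a median of 0.09. Prkaa1, which encodes a catalytic subunit of AMPK, a kinase that inactivates acetyl-CoA carboxylase, had 8.82, 8.56 and 8.78 in Dcr KO, against 7.64, 7.61 and 7.53 in Dcr WT. This difference, 1.13 on the log2 scale, was many times the spread within groups (SE 0.11, adjusted p = 0.00188 from limma). Prkaa2, which encodes the other catalytic subunit, had a difference of -0.26 with overlapping groups (adjusted p = 0.246 from limma). Hadhb, a subunit of the mitochondrial trifunctional protein, had 8.47, 8.52 and 8.67 in Dcr KO, against 7.90, 7.91 and 7.93 in Dcr WT (log2 difference 0.64, adjusted p = 0.00917 from limma). Cpt1a, the carnitine palmitoyltransferase that admits fatty acids to mitochondria, rose by 0.68 (adjusted p = 0.0266) and Acads, a short-chain dehydrogenase, fell by 0.61 (adjusted p = 0.0235 from limma). Mylip, Prkaa1 and Hadhb passed in each of the 6 fits without 1 array, Cpt1a in 1 and Acads in 2. Prkaa1 and Cpt1a are on the study's list of predicted targets, so the remark made for Abca1 holds for them. Of 16 genes of SREBP processing and degradation, Ufd1, a cofactor of the ATPase that extracts proteins from the endoplasmic reticulum, was higher (0.44, adjusted p = 0.0237 from limma, 1 of the 6 fits) and 15 did not pass (median 0.21). Its share, 6.25%, was near the 6.91% of all genes tested, and before adjustment 5 genes of the list were higher and 1 was lower at a p under 0.05.

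**Figure D5:**
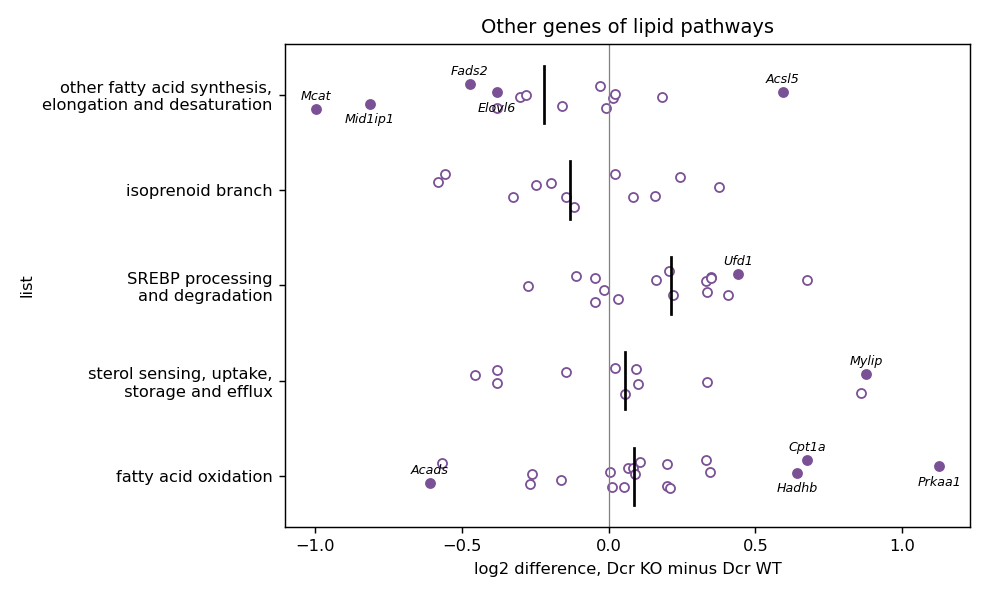
Log2 differences (Dcr KO minus Dcr WT) for the tested genes of the 5 further lists (1 point per gene; filled and named, adjusted p under 0.05 from limma; black bars, list medians; height within a list has no meaning). Filled points lie to the left for fatty acid synthesis, with Acsl5 apart, and mostly to the right for fatty acid oxidation, where Prkaa1 reaches 1.13.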

How the data were processed

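Values of 45037 probe sets on 6 arrays were deposited on a log2 scale, made with GCRMA (2.20.0, in R 2.11.1) according to the submitters' processing notes. The sources used here do not say whether other arrays were normalized together with these, and GCRMA's background model makes differences of dim probe sets less certain. Of the probe sets, 34945 carried 1 symbol in the platform annotation (932 several, 9160 none). The log2 values of a gene's probe sets were averaged. Genes whose mean reached 4 (16 on the linear scale) were tested in limma (3.58.1, under R 4.3.3; functions lmFit and eBayes), adjusted by the Benjamini-Hochberg method over 8782 genes and called at 0.05; probe sets were fitted the same way. With 3 arrays a group the number of arrays limits the precision, and a two-sided permutation test of 1 gene cannot go below 0.1. The share of all genes at an unadjusted p under 0.05 was not counted. Counts at that level have no background beside them. The fit was tested on simulated data.

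The members and lists were chosen with earlier results of these data known. Named genes are all members with a probe set, further-list genes past the threshold, and Dicer1. Acat2 is named as the member without one. The named neural, trophectoderm and fibroblast markers and Prkaa2 were added after values were seen. So were the values of single probe sets and those of Lss, Hmgcs1, Dhcr7, Ebp, Stard4 and Acly on each array. Promoter and miRNA sequences came from RefSeq tables of GRCm38.p6. Python 3.11.15 with pandas 2.3.3 and numpy 2.4.6 served for tables. The alternatives were another minimum, the brightest probe set, median centring, quantile normalization, a trended and robust prior, the replicate number as a block, and each array left out. Same-numbered arrays did not deviate together (r = -0.22, -0.02 and 0.03 for numbers 1, 2 and 3), so the numbers were not taken as pairs. Between arrays of different numbers r ran from -0.23 to 0.31, the highest for Dcr KO replicate 1 with Dcr WT replicate 2. Whether arrays of the 2 groups share a batch under other numbers was not tested.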

Additional observations from a re-analysis of the deposited data

How the results depend on the processing

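Of 385 values of a member under an alternative, 337 kept both direction and side of the threshold, 12 newly passed the test, 26 no longer passed and 10 changed sign. With each array left out in turn, the members called lower were 0 to 5, genes called higher 220 to 465 and genes called lower 137 to 376. With the brightest probe set of each gene as its value, 8 of 31 members were lower, where 8.02% of 9702 genes were. Mvk was not among the 8 (adjusted p = 0.0679 from limma). With a minimum of 6 no member was higher (0), since Abca1 was then not tested, and 404 genes were higher. With the replicate number as a block 2 members were lower (Mvd and Scd1), with 354 genes higher and 243 lower over all. The labels do not say whether the numbers pair the arrays. Abca1 was called higher in every setting that tested it. Sign changes came in members whose difference lay near 0. With arrays left out, the log2 difference ran from -0.23 to 0.023 for Sc5d, -0.11 to 0.031 for Insig2, -0.19 to 0.032 for Npc1, -0.043 to 0.026 for Acly and -0.44 to 0.30 for Scd2, and on the brightest probe set it was 0.053 for Acly. The cause of these changes was not tested. Genes near the minimum, Mvk and Abca1 in Dcr WT among them, are those for which signal over background limits the size of a difference.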
